A study of Arabidopsis thaliana with 12 samples.

Results

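The transcripts described here are those whose level was lower in Arabidopsis thaliana seedlings that overexpress MIF1 than in vector seedlings both in light and in darkness, and whose level in vector seedlings was similar in the 2 conditions. They were chosen by their measured values. On group means of log2(intensity + 7), the difference between 35S-MIF1 and vector seedlings had to be at most -0.8 in light and at most -0.8 in darkness, the absolute difference between dark-grown and light-grown vector seedlings had to be below 1, and the higher of the vector means had to be at least 6. Of 22746 probe sets, 105 passed these thresholds, and 5 of these were left out by family, namely the expansin EXPA16 and 4 genes of the GDSL lipase family. The rule also leaves out expansins, xyloglucan endotransglucosylases, tubulins, cytochromes P450, pentatricopeptide repeat proteins, peroxidases, plastid genes, BGLU33, MSRB6 and AT2G14900, of which no other named gene had passed the thresholds. The remaining 100 probe sets are the members, of which 47 name 1 gene each and 53 name no single gene here. Unnamed members could not be checked against the families that were left out. Because the differences between genotypes chose the members, those differences are given below as a description and support nothing.

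MIF1 (MINI ZINC FINGER 1) is a small plant protein that has a zinc finger like that of the zinc finger-homeodomain transcription factors but no homeodomain to bind DNA. Mini zinc finger proteins pair with zinc finger-homeodomain proteins and can keep them from acting on their targets. Seedlings that make too much MIF1 are dwarfed and respond abnormally to several growth hormones. Seedling growth in light and in darkness rests on cell expansion, for which the primary wall, a network of cellulose, hemicellulose and pectin, has to be loosened and rebuilt, and many genes below encode proteins of that wall.

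All plants were of the Columbia ecotype (ecotype from the study design for 2 dark vector samples), were T2 generation seedlings of hygromycin-resistant transformed lines, and were harvested after 7 days at 22 °C on 1x MS medium with 50 µg/mL hygromycin, following 2 days of stratification at 4 °C. MIF1OE seedlings carried MIF1 under the 35S promoter, which is active in most tissues, and control seedlings carried the vector, spelled pRRR2222 or pRR2222 in the labels, so both genotypes were transformed and selected on hygromycin. The light treatment was 16 h light and 8 h dark each day, at 70 to 120 µmol per square metre per second, and seedlings of the dark treatment saw light for 2 h, to start germination. Each of the 4 groups had 3 Affymetrix ATH1 arrays: vector lines 1, 4 and 7 for replicates 1, 2 and 3, and MIF1OE line 124 for replicates 1 and 2 and line 127 for replicate 3. The vector lines were independent transformants, but replicates 1 and 2 of MIF1OE share a line, so the spread between them may leave out differences between transformed lines.

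All deposited arrays had the same trimmed mean (2% off each end), 150.01, and medians lay between 57.4 and 70.4. Within a group, arrays correlated at 0.953 to 0.975, and no array was a copy of another among 66 pairs. No probe set was named as MIF1 or as another mini zinc finger or zinc finger-homeodomain gene, so the transgene could not be checked by name. Each array read the RNA of seedlings with many cell types, so fewer cells of a type and less RNA per cell cannot be told apart. In each list of levels below, values are log2(intensity + 7) on the arrays of replicates 1, 2 and 3 in that order, and a difference is MIF1OE minus vector on the same log2 scale, with the standard error (SE) of the limma fit. Roles given for genes known only by a locus number are background knowledge of their families, because the gene tables used here carry no descriptions.

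In light the members differed by -0.81 to -3.20, with a median of -1.06 against -0.01 over all 15922 probe sets tested. In darkness they differed by -0.80 to -3.58, with a median of -1.60 against 0.00 over all tested. The median level over the members was 7.76, 7.74 and 7.99 on the light vector arrays and 6.5, 6.97 and 6.22 on the light MIF1OE arrays. It was 7.75, 7.74 and 7.84 on the dark vector arrays and 6.15, 6.12 and 5.83 on the dark MIF1OE arrays. The 3 light MIF1OE arrays thus lay apart from one another, with replicate 2 nearest the vector level and replicate 3 farthest from it. In vector seedlings the dark level differed from the light level by -0.99 to 0.97, with a median of 0.02. The light and dark differences were correlated across the 100 members with r = 0.45, a description over points that share lines and arrays and that the rule confined to one corner of the plot.

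**Figure D1:**
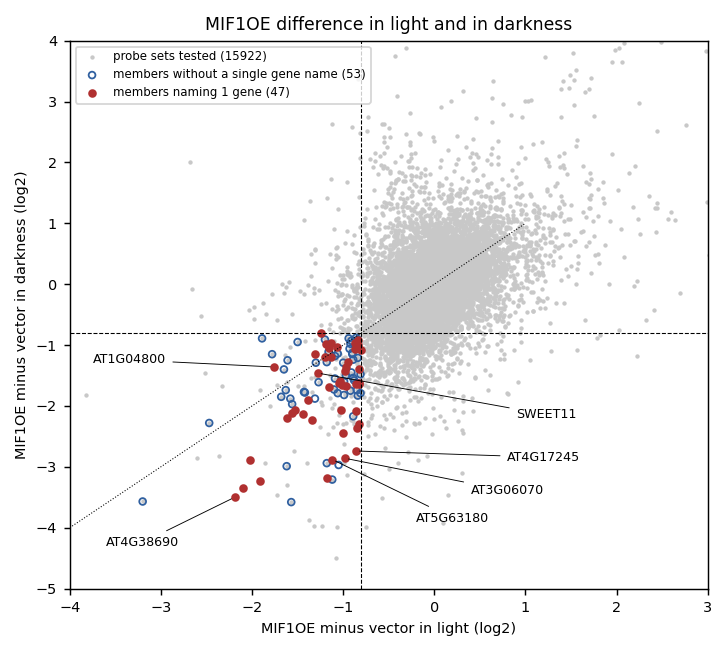
Each grey point is 1 of 15922 probe sets tested, with the MIF1OE minus vector difference in light on the x axis and in darkness on the y axis, both in log2 units. Dashed lines mark the thresholds at -0.8, the dotted line marks equal differences, and 24 grey points lie outside the axes. Filled points are the 47 members that name 1 gene and open points the other 53, and most of both lie below the dotted line, that is, their difference was larger in darkness.

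With limma, 97 of the 100 members passed the filter on dim probe sets, and AT3G53250 and 2 unnamed probe sets did not. At an adjusted p below 0.05, 21 members were lower in MIF1OE in light, where 0.327% of all probe sets tested were, and 80 were lower in darkness, where 6.75% were. The rule used both differences, so nothing is read from these shares. Both tests called 20 members, where 0.207% of all tested were called in both, and 16 of the tested members were called in neither. The 3 MIF1OE arrays lay below the 3 vector arrays without overlap for 68 members in light, against 7.43% of all probe sets, and for 98 in darkness, against 14.4%. The groups were separate in both conditions for 68 members, against 2.49%, and AT2G15880 and 1 unnamed member overlapped in both. The count of 21 in light rested on single arrays. It was 11, 10 and 8 without vector replicate 1, 2 or 3, 4 without MIF1OE replicate 1, 42 without MIF1OE replicate 2, and 0 in limma without MIF1OE replicate 3, where 70 members had an unadjusted p below 0.05. In darkness the count lay between 55 and 84 when 1 array was left out. Of the 8 named members called in light, none kept the call in every alternative setting that tested it, and AT5G55620 lost it in 1 (without MIF1OE replicate 3, limma adjusted p = 0.0544). Of the 37 named members called in darkness, 29 kept the call in every setting that tested them.

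**Figure D2:**
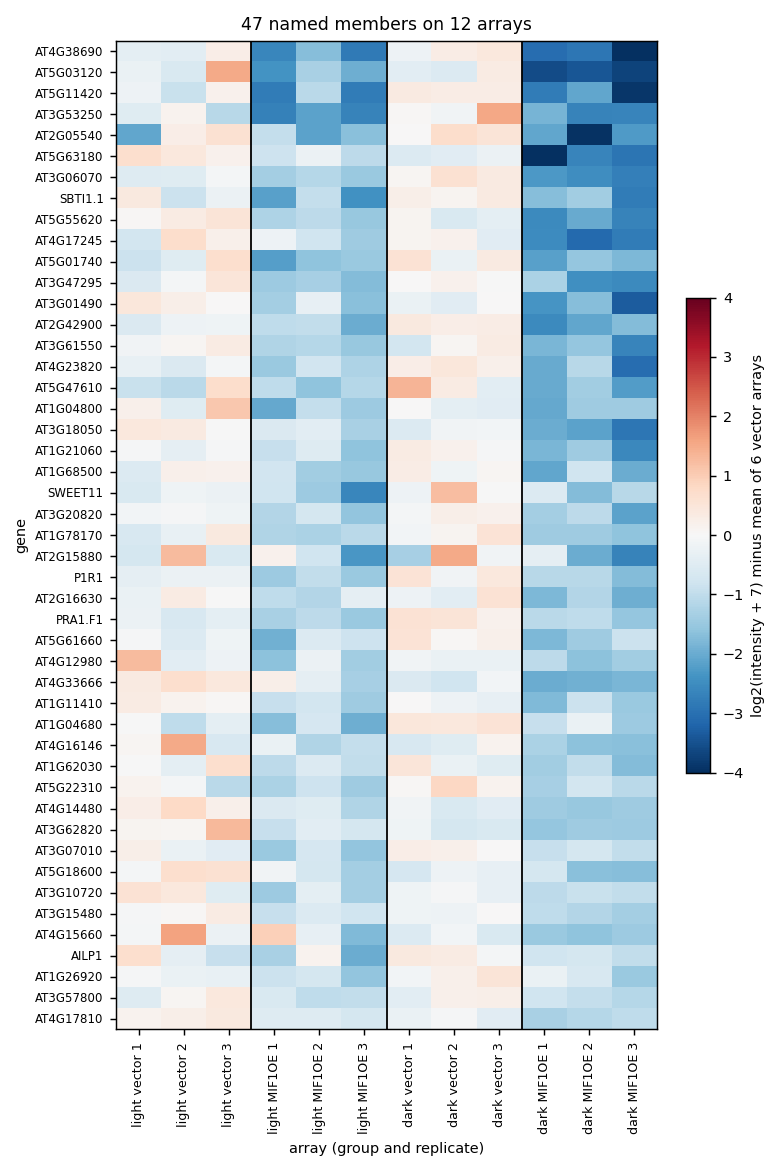
The 47 named members are rows, ordered by the mean of their light and dark differences, and the 12 arrays are columns. Colour gives log2(intensity + 7) minus the mean of the 6 vector arrays of that gene, blue for lower and red for higher. The darkest blue lies in the 3 dark MIF1OE columns, and the column of light MIF1OE replicate 2 is paler than its neighbours.

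Pectin is a polysaccharide gel of the primary wall, and 6 named members belong to families of enzymes that act on it or of their inhibitors. Their median difference was -1.09 in light and -1.19 in darkness. By limma 5 of these 6 were called in darkness, against 80 of the 100 members and 6.75% of all probe sets tested. In light 0 were called, against 21 of the 100 members and 0.327% of all tested. The rule used both differences, so nothing is read from these counts. AT5G63180, a pectate lyase-like gene, read 8.22, 7.96 and 7.72 on the light vector arrays and 6.71, 7.33 and 6.51 on the light MIF1OE arrays. In darkness AT5G63180 read 7.01, 7.09 and 7.31 with the vector and 3.24, 4.91 and 4.63 with MIF1OE. Its groups did not overlap in either condition, and the differences were -1.12 (SE 0.36) and -2.88 (SE 0.36). Pectate lyases cut the demethylated galacturonan backbone of pectin. AT4G23820, of the pectin lyase-like fold shared with polygalacturonases, read 9.25, 8.98 and 9.48 and 8.06, 8.77 and 8.33 in light for vector and MIF1OE. It read 9.82, 10.01 and 9.76 and 7.52, 8.44 and 6.51 in darkness, where MIF1OE replicate 3 of line 127 was the lowest. The groups of AT4G23820 were separate in both conditions, with differences of -0.85 and -2.37. The other pectate lyase-like members, AT1G04680 and AT3G07010, differed by -0.97 and -1.07 in light and by -1.36 and -1.03 in darkness. For AT1G04680, light MIF1OE replicate 2, at 8.78, lay above vector replicate 2, at 8.43, so its light groups overlapped. AT3G10720, a pectin methylesterase gene, differed by -1.24 in light and -0.80 in darkness, the smallest dark difference among the members. AT3G62820, of the invertase and pectin methylesterase inhibitor family, differed by -1.19 and -0.99.

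A further 9 named members encode other wall or secreted proteins, and their median difference was -1.02 in light and -2.07 in darkness. By limma 8 of these were called in darkness, against 80 of the 100 members and 6.75% of all probe sets tested. In light 1 was called, against 21 of the 100 members and 0.327% of all tested. AT5G11420 encodes a DUF642 protein, a family found in cell walls, and read 9.43, 8.76 and 9.81 on the light vector arrays and 6.84, 8.58 and 6.85 on the light MIF1OE arrays. In darkness its intensity, on the linear scale, was 1019, 976 and 970 with the vector and 108, 182 and 47.2 with MIF1OE. The dark vector arrays were almost level while the dark MIF1OE arrays spread widely, and the differences were -1.91 (SE 0.50) and -3.24 (SE 0.50). Glycine-rich proteins are short repetitive proteins, many of them in the wall. Of the 3 such members, AT2G05540 read 8.84, 11.19 and 11.53 and 9.99, 8.78 and 9.27 in light for vector and MIF1OE. In darkness AT2G05540 read 10.96, 11.64 and 11.44 and 8.84, 6.97 and 8.66. Light vector replicate 1 lay far below replicates 2 and 3, so the light groups of AT2G05540 overlapped, and the differences were -1.18 and -3.19. AT1G04800 read 7.85, 7.14 and 8.73 and 5.59, 6.67 and 6.17 in light, and 7.65, 7.26 and 7.19 and 5.58, 6.23 and 6.21 in darkness. Its groups were separate in both conditions, and it was one of the 18 members with a larger difference in light (-1.76) than in darkness (-1.36). AT5G61660 read 8.78, 8.28 and 8.65 and 6.91, 8.30 and 8.01 in light, and 9.39, 8.87 and 9.03 and 7.04, 7.40 and 7.96 in darkness. Its light groups met at MIF1OE replicate 2, and the differences were -0.83 and -1.63.

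SBTI1.1, a subtilase, is a secreted protease of a family that cleaves wall proteins and peptide precursors. SBTI1.1 read 6.66, 5.42 and 6.04 and 4.12, 5.31 and 3.84 in light for vector and MIF1OE, and 6.5, 6.4 and 6.64 and 4.58, 4.90 and 3.49 in darkness. MIF1OE replicate 2 was the highest of its group in both conditions, the groups stayed separate, and the differences were -1.62 and -2.19. AT2G42900, of the plant basic secretory protein family, read 6.43, 6.80 and 6.83 and 6.0, 6.03 and 5.03 in light, and 7.40, 7.28 and 7.30 and 4.47, 4.92 and 5.28 in darkness. Its dark vector arrays lay within a narrow band well above the MIF1OE arrays, with differences of -1.0 in light and -2.44 (SE 0.27) in darkness. AT3G18050, a gene for a protein with a glycosylphosphatidylinositol anchor, read 9.55, 9.49 and 9.12 and 8.55, 8.72 and 7.84 in light, and 8.59, 8.98 and 9.03 and 7.13, 6.99 and 6.25 in darkness. No array of either MIF1OE group reached the vector range, and the differences were -1.02 and -2.07. AT2G16630, a proline-rich protein of the Ole e 1 wall protein family, read 7.74, 8.32 and 7.97 and 6.99, 6.82 and 7.64 in light, and 7.81, 7.59 and 8.57 and 6.19, 6.82 and 6.04 in darkness. In light MIF1OE replicate 3 of AT2G16630 came close to the vector range, and the differences were -0.86 and -1.64. AT2G15880, a leucine-rich repeat extensin-like gene, read 5.30, 7.27 and 5.40 and 6.17, 5.2 and 3.68 in light, and 4.68, 7.53 and 5.87 and 5.66, 4.03 and 3.35 in darkness. Replicates within each group of AT2G15880 differed by more than the group means did, the groups overlapped in both conditions, and the SE of 0.84 was close in size to the light difference of -0.97 (darkness -1.68).

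**Figure D3:**
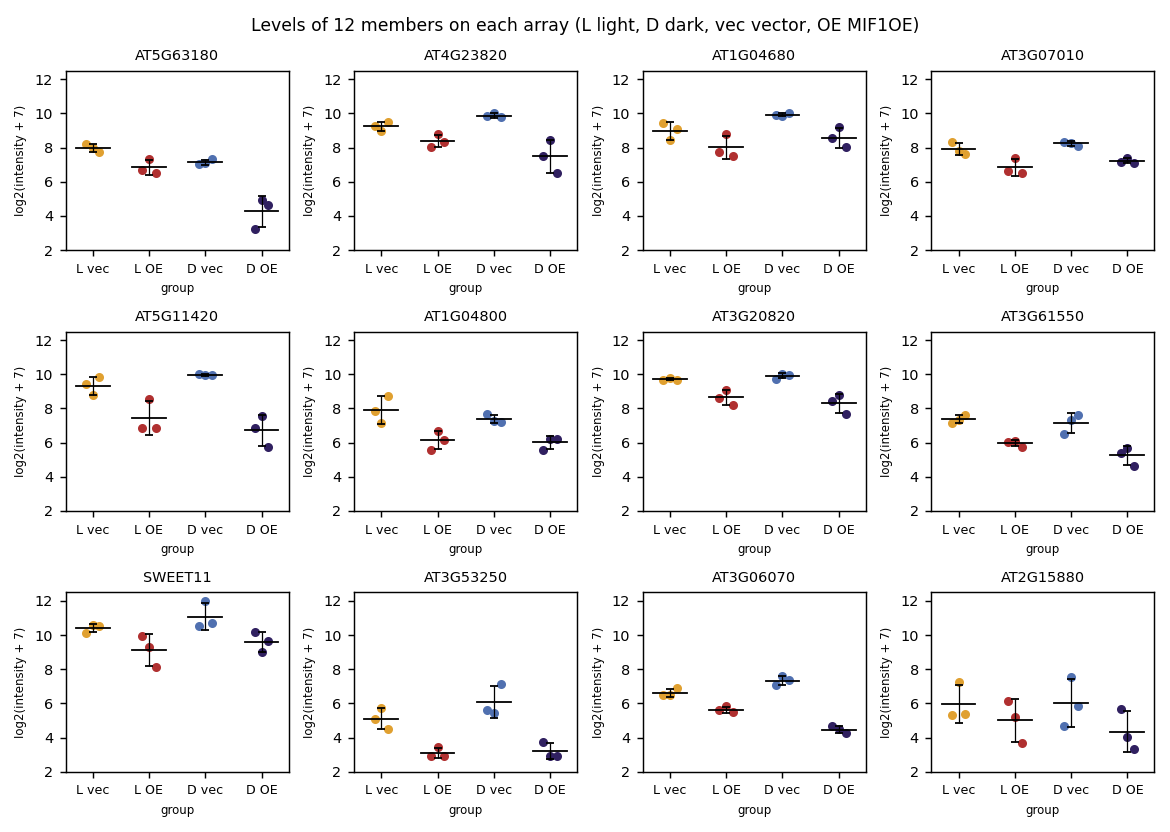
Levels, as log2(intensity + 7), of 12 members on each of the 12 arrays. Points are arrays in the order of replicates 1, 2 and 3, the horizontal line is the group mean and the bar is the SD (n = 3). MIF1OE points lie below vector points in both conditions for 10 of the 12 genes, AT1G04680 overlaps in light, and AT2G15880 overlaps in both.

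Protein kinases and leucine-rich repeat proteins, many of which sense or relay signals at the cell surface, gave 4 named members. AT3G01490, a protein kinase gene, read 7.28, 7.07 and 6.83 and 5.47, 6.51 and 5.17 in light for vector and MIF1OE, and 6.56, 6.38 and 6.84 and 4.48, 5.11 and 3.50 in darkness. The groups of AT3G01490 were separate and the lowest array in each condition was MIF1OE replicate 3, with differences of -1.34 and -2.23. AT3G20820, a leucine-rich repeat protein gene, read 9.69, 9.76 and 9.65 and 8.63, 9.09 and 8.22 in light, and 9.74, 10.03 and 9.98 and 8.44, 8.77 and 7.68 in darkness. Its light vector arrays agreed within 0.11, all MIF1OE arrays lay below them, and the differences were -1.05 and -1.62. AT1G11410, a receptor kinase of the S-locus lectin type, differed by -1.2 in light and -1.2 in darkness. AT4G14480, which encodes BLUS1, a kinase that relays blue light signals in guard cells to open stomata, differed by -1.16 and -1.04. AT1G11410 and AT4G14480 were called in both conditions, but lost the light call in 12 and 6 alternative settings (limma adjusted p up to 0.182 and 0.183).

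RING finger proteins are mostly ubiquitin ligases that mark other proteins for breakdown, and 3 members encode them. Their median difference was -0.86 in light and -2.30 in darkness. AT4G17245 read 7.51, 8.93 and 8.44 and 8.03, 7.45 and 6.82 in light for vector and MIF1OE, and 8.33, 8.40 and 7.79 and 5.72, 5.13 and 5.44 in darkness. Its light groups overlapped, with vector replicate 1 (7.51) below MIF1OE replicate 1 (8.03), while its dark groups were 2.07 log2 units apart, and the differences were -0.86 and -2.74. AT3G61550 read 7.13, 7.35 and 7.60 and 6.05, 6.11 and 5.75 in light, and 6.52, 7.34 and 7.60 and 5.42, 5.71 and 4.62 in darkness. AT3G61550 was separate in both conditions, by -1.39 and -1.91. AT5G47610 read 6.41, 6.21 and 8.00 and 6.28, 5.69 and 6.15 in light, and 8.65, 7.63 and 6.86 and 5.28, 5.89 and 5.07 in darkness. Light vector replicate 3 stood well above the other vector arrays of AT5G47610, the light groups overlapped, and the differences were -0.83 and -2.30.

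Among transport and membrane genes, SWEET11 encodes a sucrose exporter that loads sugar into the phloem of leaves. SWEET11 read 10.15, 10.57 and 10.52 on the light vector arrays and 9.96, 9.30 and 8.14 on the light MIF1OE arrays. In darkness SWEET11 read 10.53, 11.98 and 10.72 with the vector and 10.19, 9.02 and 9.63 with MIF1OE. The groups were separate in both conditions, but in light the 3 MIF1OE arrays spanned 1.82 log2 units, with line 127 lowest, and the differences were -1.28 (SE 0.47) and -1.46 (SE 0.47). PRA1.F1, a prenylated RAB acceptor of vesicle traffic, read 6.39, 5.97 and 6.22 and 5.34, 5.59 and 5.15 in light, and 7.20, 7.15 and 6.80 and 5.55, 5.62 and 5.06 in darkness. Its arrays lay close within each group and apart between genotypes, with differences of -0.83 and -1.64. In vector seedlings PRA1.F1 was higher in darkness than in light by 0.85.

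Auxin is the hormone of cell elongation, and 2 members carry its name. AT3G53250, which the gene table also names SAUR57, belongs to the small auxin up RNA genes, whose products promote cell expansion. AT3G53250 read 5.11, 5.73 and 4.50 and 2.90, 3.45 and 2.93 in light for vector and MIF1OE, and 5.64, 5.46 and 7.15 and 3.73, 2.94 and 2.95 in darkness. The groups of AT3G53250 were separate, by -2.02 and -2.88, but the gene was too dim on average to be tested, and levels near 3 leave little room above the pseudocount. AT4G12980, of an auxin-responsive family of membrane proteins, read 8.11, 6.42 and 6.65 and 5.21, 6.59 and 5.45 in light, and 6.71, 6.58 and 6.57 and 5.79, 5.2 and 5.45 in darkness. One vector array, light replicate 1, stood well above the others, the light groups overlapped, and the differences were -1.31 and -1.14.

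CC-type glutaredoxins are small redox proteins that bind TGA transcription factors, and AT5G18600 and AT4G15660 are members. AT5G18600 differed by -1.13 in light and -0.97 in darkness, and AT4G15660 by -0.81 and -1.08. AT4G15660 has near-identical neighbours in the genome, so its probe set may read more than 1 gene. Transcription factors were represented by AT3G57800, of the bHLH family, at -0.87 and -0.96, and by AT4G17810, a C2H2 zinc finger gene, at -0.84 and -0.91. AT4G17810 had the least negative mean difference among the named members and was called in both conditions, with arrays that lay close together (SE 0.16), although the light call was lost in 5 alternative settings (limma adjusted p up to 0.126).

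Other named members lay outside these groups. Among them AT4G38690 and AT5G03120 had the most negative mean differences of all named members, followed by AT5G11420 and AT3G53250 described above. AT4G38690, which encodes a phospholipase C-like phosphodiesterase, read 7.74, 7.71 and 8.37 on the light vector arrays and 5.51, 6.43 and 5.29 on the light MIF1OE arrays. In darkness AT4G38690 read 7.92, 8.43 and 8.55 with the vector and 5.08, 5.22 and 4.11 with MIF1OE. It had the most negative mean difference of the named members, -2.19 (SE 0.35) in light and -3.50 (SE 0.35) in darkness, and no overlap. AT5G03120, of unknown role, read 6.42, 6.07 and 8.18 and 4.28, 5.37 and 4.74 in light, and 6.26, 6.13 and 7.01 and 3.11, 3.27 and 2.97 in darkness. The dark MIF1OE arrays of AT5G03120 lay near the floor set by the pseudocount, and its differences were -2.10 and -3.35. AT5G01740, of the nuclear transport factor 2 family, read 6.74, 7.12 and 8.30 and 5.42, 6.0 and 6.14 in light, and 8.19, 7.35 and 7.98 and 5.45, 6.07 and 5.83 in darkness. AT5G01740 was separate in both conditions (-1.53 and -2.06), and unlike most members its highest light MIF1OE array was line 127.

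AT5G55620 read 7.96, 8.25 and 8.44 and 6.68, 6.88 and 6.41 in light for vector and MIF1OE, and 8.01, 7.30 and 7.52 and 5.36, 5.90 and 5.24 in darkness. It was called in both conditions, at -1.56 (SE 0.23) and -2.11 (SE 0.23). AT3G47295 read 7.35, 7.83 and 8.40 and 6.47, 6.59 and 6.19 in light, and 7.94, 8.07 and 7.89 and 6.66, 5.47 and 5.37 in darkness. Its differences were -1.44 and -2.14, with dark MIF1OE replicate 1 above the other two. AT1G21060, a DUF547 gene, read 5.90, 5.6 and 5.90 and 5.03, 5.43 and 4.36 in light, and 6.29, 6.14 and 5.92 and 4.13, 4.54 and 3.39 in darkness. For AT1G21060 the light gap was narrow, since MIF1OE replicate 2 lay 0.17 below the lowest vector array, and the differences were -0.86 and -2.09. AT1G68500 read 6.51, 7.26 and 7.22 and 6.29, 5.68 and 5.54 in light, and 7.37, 6.88 and 7.13 and 4.98, 6.27 and 5.07 in darkness. The groups of AT1G68500 were separate, by -1.16 and -1.69. AT1G78170 read 6.99, 7.34 and 8.04 and 6.42, 6.37 and 6.57 in light, and 7.51, 7.74 and 8.19 and 6.22, 6.21 and 6.01 in darkness. P1R1 read 6.32, 6.43 and 6.45 and 5.22, 5.70 and 5.19 in light, and 7.22, 6.54 and 7.10 and 5.57, 5.57 and 4.94 in darkness. Both genes had all MIF1OE arrays below the vector range, with differences of -1.01 and -1.66 for AT1G78170 and of -1.03 and -1.59 for P1R1. The remaining named members, AT4G33666, AT4G16146, AT1G62030, AT5G22310, AT3G15480, AILP1 and AT1G26920, differed by -0.83 to -1.13 in light and by -1.0 to -1.43 in darkness.

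The 53 members with no single gene name had medians of -1.06 in light and -1.55 in darkness, close to those of the named members. The largest of these differences in light was that of the probe set 260221_at, which read 10.52, 9.98 and 9.69 and then 5.75, 8.59 and 6.26 in light for vector and MIF1OE, and 9.79, 9.81 and 10.06 and then 6.86, 6.58 and 5.51 in darkness. Its light difference (-3.20, SE 0.59) was the largest of all members, and its dark difference was -3.57, but light MIF1OE replicate 2 stood well above replicates 1 and 3. The probe set 252971_at read 11.14, 11.44 and 11.46 and then 9.68, 10.03 and 9.62 in light, and 10.94, 11.41 and 11.37 and then 7.32, 9.14 and 6.52 in darkness. Its difference was -1.57 in light and -3.58 in darkness, the largest in darkness.

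The dark difference was more negative than the light difference for 82 of the 100 members, and the median interaction, the dark difference minus the light difference, was -0.45. The members were selected on both differences that the interaction is made of, so these values describe the selected members and nothing is read from them. AT3G06070, whose role is not given here, was the only member that passed limma's interaction test, where 0.741% of all probe sets tested passed, and 19 members had an unadjusted p below 0.05. AT3G06070 read 6.47, 6.49 and 6.91 and 5.62, 5.83 and 5.48 in light for vector and MIF1OE, and 7.07, 7.58 and 7.35 and 4.67, 4.49 and 4.25 in darkness. Its dark vector arrays were the highest and its dark MIF1OE arrays the lowest of the 12, and the genotype difference was -0.98 in light and -2.86 in darkness (interaction -1.88, SE 0.27, limma adjusted p = 0.00935). With plant source, as matched by line and replicate number, entered as a replicate block, 4 members passed. They were AT3G06070, AT1G21060 (-1.23, SE 0.20, limma adjusted p = 0.0348) and 2 unnamed ones. Over all probe sets tested 211 passed with the block, against 118 without it. AT2G05540 and AT4G17245 had interactions of -2.02 (SE 0.92) and -1.88 (SE 0.52) that did not pass, their spread between arrays being larger.

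The dark minus light difference within MIF1OE seedlings equals that of the vector seedlings plus the interaction, so it too is made of values the rule used, and its counts are a description from which nothing is read. By limma 21 members were lower in darkness than in light in MIF1OE seedlings, where 11.8% of all probe sets tested were, and 2 unnamed members were higher, where 12.4% were. The median difference was -0.51 over the members. Of the 11 named members that were lower, AT5G63180 differed most (-2.59, SE 0.36, limma adjusted p = 0.000335), against -0.83 in vector seedlings. AT4G17245 differed by -2.00 (SE 0.37, limma adjusted p = 0.00172), against -0.13 in vector seedlings. AT5G03120, AT3G18050, AT4G33666, AT3G01490, AT3G06070 and AT5G55620 differed by -1.68, -1.57, -1.43, -1.36, -1.17 and -1.15 in MIF1OE, and each passed. AT3G06070 was the one among these whose vector difference was above 0, at 0.71. AT1G21060, AT4G14480 and AT4G17810 differed by -0.92, -0.70 and -0.58 and passed. These calls were lost in 12 alternative settings for AT1G21060 (limma adjusted p up to 0.167), in 9 for AT4G14480 (0.14), in 5 for AT5G03120 (0.0832), in 3 for AT3G01490 (0.0982) and in 3 for AT4G17810 (0.0747), and the other 6 named members kept theirs in every setting that tested them. In MIF1OE the count of members called, 23 in all against 24.2% of all tested, was 11 without light MIF1OE replicate 2 and 12 without dark MIF1OE replicate 1.

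**Figure D4:**
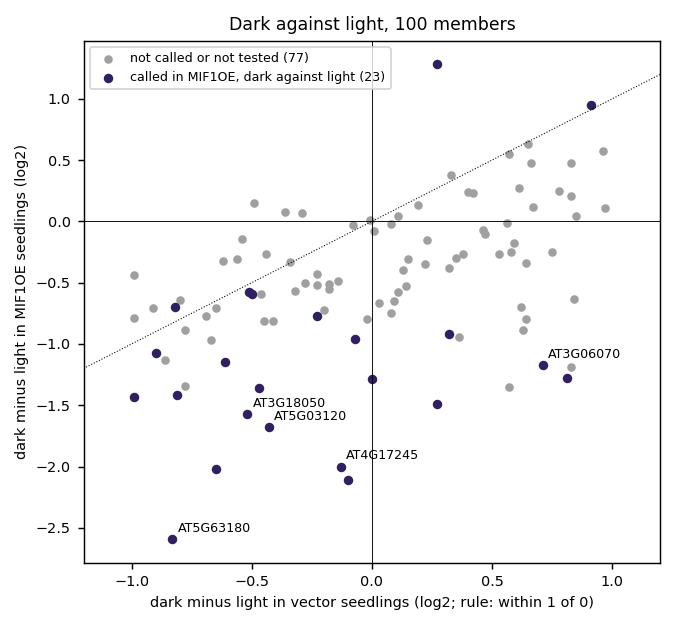
Each point is 1 of the 100 members, with dark minus light in vector seedlings on the x axis and dark minus light in MIF1OE seedlings on the y axis, both in log2 units. Dark points are the 23 members called in MIF1OE, the dotted line marks equal differences, and the 82 members below it are those with a more negative genotype difference in darkness.

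In vector seedlings the rule kept each member within 1 log2 unit of no difference between darkness and light, which is not the same as no difference. By limma 10 members differed, 7 lower and 3 higher in darkness, against 30.3% of all probe sets tested (13.6% lower and 16.7% higher), a count read as a description because the rule used this contrast. Among them AT3G62820 and AT4G33666 were lower in darkness by 0.99 each, and PRA1.F1 was higher by 0.85. With plant source as a replicate block the count was 21, and over all probe sets tested it was 5843, against 4829 without the block. Just inside the thresholds lay light differences of -0.809, -0.810 and -0.815, dark differences of -0.80, -0.878 and -0.886, absolute vector differences of 0.992, 0.991 and 0.987, and vector means of 6.03, 6.05 and 6.06. Just outside lay light differences of -0.798, -0.792 and -0.791, dark differences of -0.799, -0.794 and -0.787, absolute vector differences of 1.006, 1.024 and 1.026, and vector means of 5.97, 5.90 and 5.89. AT4G15660 and AT3G10720 were the named members nearest to the light and the dark threshold, and BZIP61, AT5G66310, AT1G67600 and AT2G22200 were named genes just outside the other thresholds.

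MIF1OE seedlings came from 2 lines, and the members were lower in line 127 (1 array in each condition) than in line 124 (2 arrays), which allows values but no test. In light, line 124 differed from the vector mean by a median of -0.93 and line 127 by -1.49. In darkness the medians were -1.46 and -1.82. Line 127 lay above line 124 for 15 members in light and 23 in darkness, where 47.2% and 47.5% of all probe sets tested did. The named members with the largest light gap between lines were AT4G15660 (-2.08, line 127 minus line 124), AT2G15880 (-2.01) and SWEET11 (-1.48). In darkness AT2G15880 (-1.49), AT4G23820 (-1.48) and AT5G11420 (-1.44) had the largest gaps. Line 124 by itself was at most -0.8 for 70 members in light and 93 in darkness. An unnamed member was above the vector mean in line 124 in light, by 0.33. The 2 light arrays of line 124 also differed from each other, since replicate 2 was the highest of the 3 MIF1OE arrays for 76 members, against 36.5% of all tested. The median SD of the 3 arrays was larger over the members than over all tested in every group, at 0.42 against 0.27 for light vector, 0.51 against 0.22 for light MIF1OE, 0.27 against 0.21 for dark vector and 0.38 against 0.21 for dark MIF1OE. When 1 array was left out at a time, 38 members satisfied the rule every time, and AT4G15660 satisfied it in 7 of 12 cases.

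**Figure D5:**
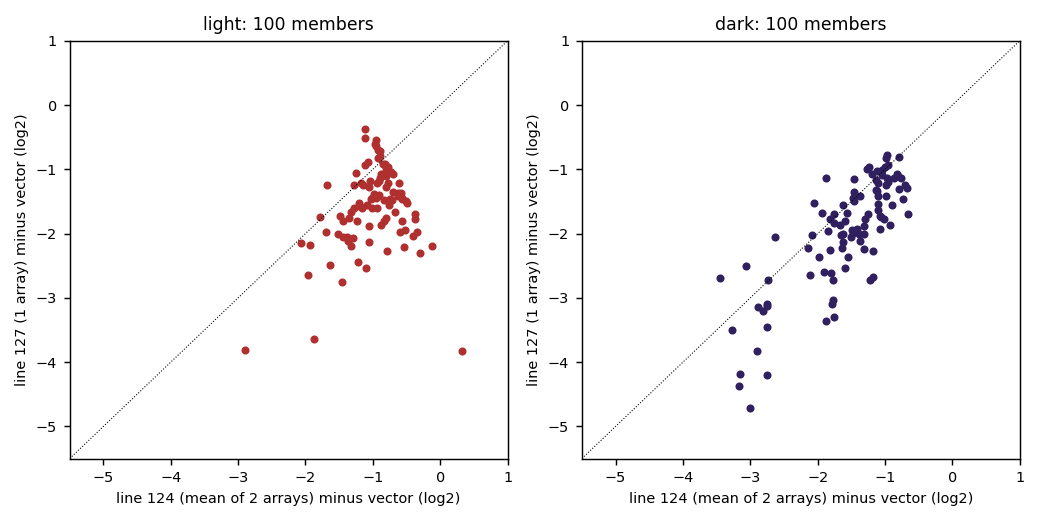
Each point is 1 of the 100 members in light (left) and in darkness (right), with line 124 minus vector (mean of 2 arrays) on the x axis and line 127 minus vector (1 array) on the y axis, in log2 units. Most points lie below the dotted line of equal differences, and the right-hand point in light is the member that lay 0.33 above the vector mean in line 124.

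The families of the wall, redox and sugar transport members were looked up after the values had been seen, so their counts are a description. Of 13 pectate lyase-like genes tested, 3 are members. In darkness 4 were lower and 1 higher in MIF1OE, where 6.75% of all probe sets tested were lower. The 3 members are among those 4, and the rule had required of them a dark difference of at most -0.8. Beyond the members, AT5G48900 was lower in darkness (-1.79, SE 0.38, limma adjusted p = 0.0109) and AT3G24670 was higher (0.88, SE 0.20, limma adjusted p = 0.0163). The family medians were -0.44 in light and -0.46 in darkness. The rule chose the pectin members for their low differences, so their medians had to be large in size. Nothing is therefore read from a comparison of the family with these members. Of 7 DUF642 genes tested, AT5G11420 is the only member, and AT2G41800 (1.34, limma adjusted p = 0.00433) and AT5G14150 (1.40, limma adjusted p = 0.00786) were higher in darkness in MIF1OE, the opposite direction. Among 14 CC-type glutaredoxins tested, with medians of -0.59 and -0.72, AT1G06830 was lower in light (-1.88, limma adjusted p = 0.038). AT2G30540 and AT4G15690 were lower in darkness (-1.68 and -1.11, limma adjusted p = 0.0352 and 0.0496). No SWEET gene passed limma's test in either condition among 10 tested, although 3 had an unadjusted p below 0.05 in light and 3 in darkness, and the family medians were -0.12 and -0.34.

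Of 10 lists of genes related to MIF1 action or wall growth, 7 had no gene that was named and tested, among them the zinc finger-homeodomain, aquaporin and arabinogalactan lists. Of 2 Aux/IAA genes tested, repressors of auxin response, IAA29 (-2.01, SE 0.38, limma adjusted p = 0.00635) and IAA18 (-0.72, SE 0.14, limma adjusted p = 0.0084) were both lower in darkness in MIF1OE. In light they differed by -0.63 and -0.26, which did not pass. Of 4 genes for cellulose and pectin of growing walls, COB, which orients cellulose deposition (-0.58, SE 0.17, limma adjusted p = 0.0466), and THE1, a wall-sensing receptor kinase (-0.73, SE 0.22, limma adjusted p = 0.0449), were lower in darkness. PME35 (-1.21) and FER (-0.14) did not pass, and in the same list the light differences ran from -0.29 to 0.05. The brassinosteroid receptor-like gene BRL1 differed by 0.05 in light and 0.12 in darkness and did not pass.

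Markers of cell types that seedlings hold were summed for each group. Sums are given for mesophyll and seed, and values of single genes for the other cell types. The summed intensity of the 8 of 25 mesophyll markers measured was 23656 to 29780 on light vector arrays and 20190 to 21800 on light MIF1OE arrays, and 7525 to 13172 and 6361 to 9852 in darkness, with PRK the 1 of 8 that was lower in darkness by test (-1.54, SE 0.24, limma adjusted p = 0.00221). The 3 of 23 seed markers measured summed to 34 to 39 and 73 to 106 in light for vector and MIF1OE, and to 114 to 406 and 154 to 1879 in darkness. These seed genes differed in direction, since in darkness OLEO3 was lower in MIF1OE (-1.66, limma adjusted p = 0.044) while LEA4-5 (2.34, limma adjusted p = 0.0425) and LEA18 (3.99, limma adjusted p = 0.00433) were higher. The root hair markers EXPA7 and EXPA18, 2 of 12 listed, were higher in MIF1OE in darkness by 1.56 and 1.53 (limma adjusted p = 0.00325 and 0.00905). The root marker PYK10, 1 of 16 listed, differed by 0.05 in light and 0.15 in darkness. The xylem marker IRX10, 1 of 17 listed, differed by -0.25 and -0.23. Of 12 shoot meristem markers listed, 2 were measured. LAS differed by -0.19 in light and 0.16 in darkness and did not pass, and CLV3, too dim to be tested, by 0.47 and -0.34. Of 15 epidermal markers listed, 3 were measured, and their values differed. FAMA differed by -0.96 in light and -0.18 in darkness, SPCH by -0.15 and -0.93, and MUTE by 0.13 and -0.06. SPCH and MUTE were too dim to be tested, and FAMA did not pass (limma adjusted p = 0.059 in light and 0.634 in darkness). SWEET11 was the only phloem marker of 9 named on the arrays, so phloem content could not be read apart from this member. The lowest level of a measured listed gene on any array was 2.89, for LEA18 on a light vector array. That is close to the 2.81 that an intensity of 0 would give, and the light vector mean of LEA18 was 3.16. The part of these shifts in the differences of the members was not tested. The 47 named members lay on all 5 nuclear chromosomes, with 10, 4, 13, 9 and 11 on chromosomes 1 to 5, and the nearest pair, AT1G04680 and AT1G04800, was 11 genes apart in the TAIR10.1 gene order.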

How the data were processed

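The values were linear probe set intensities of 12 single-colour Affymetrix ATH1 arrays, deposited by the authors, who computed them with GCOS per the submitters' processing notes (version not given in the sources used here). No further normalization was applied. Levels were taken as log2(value + 7), a scale on which changes of dim genes are understated. After removal of 64 control probe sets, the 15922 of 22746 other probe sets above the 30th percentile of mean level were tested in limma 3.58.1 (R 4.3.3), with 4 group means over all 12 arrays. The threshold was a Benjamini-Hochberg adjusted p of 0.05 over all tested. On simulated arrays 94% of 4-fold and 55% of 2-fold changes were called in darkness, 90% and 49% in light, and 77% and 18% for the interaction. Each simulation changed 200 of the 15922 probe sets, with independent noise and no effect of line or source. These rates need not hold for the members, whose arrays spread more than those of all tested. The number of arrays limits the precision. Light and dark samples matched by line and replicate number correlated in their deviations from group means (r = 0.233 to 0.339). Unmatched pairs were not set beside them, so these values do not show that matched samples shared a plant source. The match was also entered as a replicate block for plant source. MIF1OE and vector samples share no number.

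Gene names came from the platform annotation, updated by a RefSeq gene table of TAIR10.1: 13513 probe sets named 1 gene, 503 several and 8730 none here. Every member naming 1 gene could be named, and array values are given for the 30 with the most negative mean difference. GDSL genes were recognised by locus number. The members and lists were chosen with earlier results of these data known, and the family lists after values were seen. Promoter sequences were not used here.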

Additional observations from a re-analysis of the deposited data

Results flagged for a closer look

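AT3G06070 was singled out because it was the only member called by limma's interaction test in the reported setting. The interaction was -1.88 (SE 0.27, limma adjusted p = 0.00935), from a test over all probe sets. The gene was selected on both differences that the interaction is made of, so the call describes a selected gene and supports nothing. The interaction was called in all 20 settings that tested it, the reported one included, with values from -2.26 to -1.58 and limma adjusted p from 0.00819 to 0.0302. Under a filter at the 50th percentile of mean level this gene was not tested. All 3 dark MIF1OE arrays lay below every other array for this gene, and all 3 dark vector arrays lay above every other array.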

How the results depend on the processing

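The rule gave 100 members. With both differences at most -1 it gave 52, at most -0.6 it gave 209, with the vector difference below 0.5 it gave 51, with MIF1OE line 127 alone it gave 264 and with line 124 alone 75, and with 1 array left out 78 to 155, the highest without light MIF1OE replicate 2. The cause of these shifts was not tested beyond what each change of threshold does by itself. Members called in light numbered 21, but 12 with the 50th percentile filter, 5 from the 6 light arrays alone, and 0 to 42 with 1 array left out. Members called in darkness numbered 80, and 55 to 84 with 1 array left out. With plant source as a random replicate block, 23 were called in light and 80 in darkness. For the interaction the count was 1, with 0 under the 50th percentile filter (limma; 72 members tested, 12 at an unadjusted p below 0.05), 4 with the replicate block and 1 to 2 with 1 array left out. For dark against light in vector seedlings it was 10, with 5 under the 50th percentile filter, 21 with the replicate block and 4 to 13 with 1 array left out. For dark against light in MIF1OE it was 23, with 14 under the 50th percentile filter and 11 to 27 with 1 array left out; with the replicate block it was 32, of which 22 were shared, and AT4G14480 was lost. Over all probe sets, leaving out 1 array moved the calls in light from 157 to between 44 and 266, and in darkness from 2052 to between 1052 and 2379. With the replicate block the calls over all probe sets moved from 118 to 211 for the interaction. For dark against light they moved from 4829 to 5843 in vector seedlings and from 3846 to 4699 in MIF1OE. Among values of named members under each alternative, 1965 kept their direction and their side of the threshold, 126 lost the call, 47 gained one and none changed sign. These values cover 46 named members in light and in darkness. For the interaction they cover only the 1 called member, and for dark against light in MIF1OE only the 11 called. Calls gained in those comparisons, such as the interaction of AT1G21060 with the replicate block, are therefore not counted. The lost calls were 57 in light, from all 8 members called there, 37 in darkness, from 8 of 37, and 32 for dark against light in MIF1OE, from 5 of 11. The planned counts of promoter motifs were not run. Each array is a single hybridisation and line 127 has 1 array in each condition, which limits what can be said of lines. Dim probe sets near the pseudocount carry understated differences.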
